A study of Arabidopsis thaliana with 39 samples.

Results

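AT2G41810 is an Arabidopsis thaliana gene of the DUF642 family, a family of secreted plant proteins named after a domain of unknown function. Its row was chosen by gene ID from a table of 806 genes with earlier results of these values known, so it is 1 of 806 genes and its course is given as a description with no test. The row was followed across all 13 groups of the time course. DUF642 proteins are known as proteins of the plant cell wall, and members of the family have been tied to the activity of pectin methylesterases, the enzymes that remove methyl groups from pectin and so change how stiff the wall is. The root epidermis is the layer that takes up iron from the soil, and its cells leave division, elongate and form root hairs or hairless files, steps in which the wall is loosened and rebuilt. The reference annotation describes AT2G41810 as an imidazolonepropionase with DUF642, an enzyme name that belongs to histidine breakdown, so its place among wall proteins rests on the family and not on a value measured here.

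The seedlings were of the Columbia (Col-0) accession and carried pWER::GFP, a green fluorescent protein under the promoter of WEREWOLF, a transcription factor gene of the root epidermis. All 39 libraries came from this line, in 13 groups of 3, and all plants were 7 days old at transfer from iron-sufficient (+Fe) medium. The groups were +Fe at 0 h, then +Fe and iron-deficient (-Fe) medium at 6, 12, 18, 24, 30 and 36 h after the move, when roots were made into protoplasts and the GFP-positive cells sorted. By the sample labels, +Fe medium held 0.1 mM FeEDTA and -Fe medium lacked it and held 300 µM ferrozine, which binds iron, whereas the Methods list FeEDTA for both media. The cells are those in which the WER promoter was active, after the wall had been digested off, and fewer cells of a type cannot be told apart from less RNA per cell. The deposited table gives 1 RPKM value (reads per length of gene and per total of reads) per gene and group, so there is no spread between libraries, and each difference below is one between single values. The read depth is unknown. Each low value times its exon length was divided by the smallest such product of its group. Of 857 quotients, 82 (9.57%) lay within 0.05 of a whole number, close to the 10% that such a window covers. This cannot decide the depth, since the smallest product need not stand for 1 read. How the libraries were merged and which exon lengths the authors used are not known either.

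The labelled cell type could not be checked with this table. It holds genes titled as differentially expressed, so markers that did not change may be missing from it, and 1 chosen marker alone was found. Of 28 markers of root cell types, GL2, a homeobox gene of hairless epidermal cells, was in the table, at 98.1 to 409.8 RPKM with a median of 187, and the others, among them all 14 markers of inner cell types and of the root cap, were not analysed here. The iron state of the medium was checked with IRT1, the main iron transporter of the root surface, and FRO2, the ferric chelate reductase. IRT1 was higher on -Fe medium by 1.47 at 6 h and by 7.36 at 36 h on the log2 scale. On +Fe medium IRT1 also rose, from 19.5 RPKM at 0 h to 155 at 6 h, and was at 18.7 at 36 h. The cause of this early rise on +Fe medium was not tested. FRO2 was higher on -Fe medium by 0.25, 0.55, 0.36, 0.70, 0.81 and 1.26 from 6 to 36 h. Its values from 6 to 24 h lay below 0.75, the size limit used below.

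AT2G41810 was high on fresh +Fe medium and low on -Fe medium. At 0 h its level was 225 RPKM. On +Fe medium it was 2482, 2657, 2101, 1413, 1484 and 1021 RPKM at 6, 12, 18, 24, 30 and 36 h. On -Fe medium it was 542, 345, 340.0, 145, 130.2 and 169 RPKM at the same times. The 6 +Fe values after transfer all lay above the 6 -Fe values, and the lowest of the former, at 36 h, was 1.88 times the highest of the latter, at 6 h. Of the 806 genes, 29 (3.60%) had all +Fe values above all -Fe values, and 34 (4.22%) had the reverse.

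**Figure D1:**
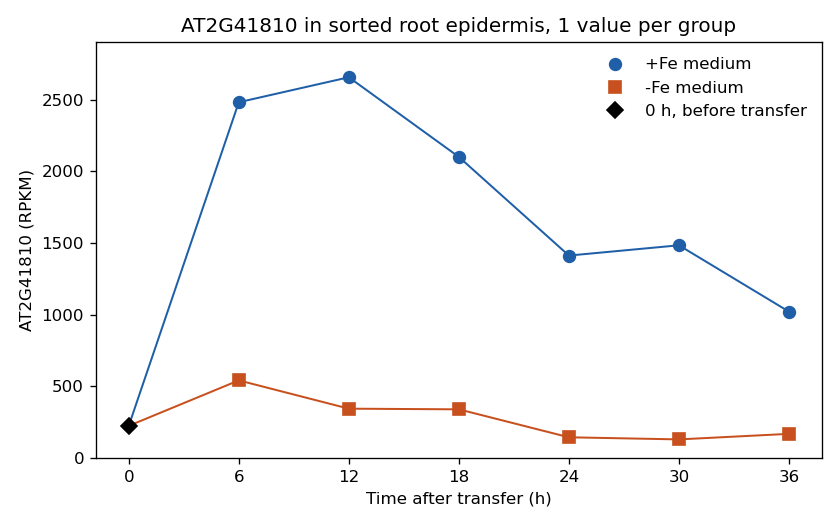
RPKM of AT2G41810 on the linear y axis against hours after transfer on the x axis, with 1 point per group and no error bars, since the table holds 1 value per group. The +Fe points rise from 225 RPKM at 0 h to 2657 at 12 h and come down to 1021 at 36 h, and the -Fe points stay at or below 542.

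In order of level, +Fe at 12 h came first and was followed by +Fe at 6, 18, 30, 24 and 36 h, then by -Fe at 6, 12 and 18 h. The 0 h group was the 10th of 13, and -Fe at 36, 24 and 30 h were the lowest. The highest group was 20.4 times the lowest. Several neighbours in this order lay close together, such as 2657 and 2482, 1484 and 1413, or 345 and 340.0 RPKM, and with no spread at hand their order cannot be judged. The standard deviation of log2(RPKM + 1) over the 13 groups was 1.62 for AT2G41810, the 19th highest of the table, where the median gene had 0.39. Against the other genes of the table it stood at rank 403 by level at 0 h, between ranks 53 and 138 on +Fe medium and between ranks 235 and 473 on -Fe medium, so that its place moved from the middle of the table to the upper part and back.

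The first comparison was that of -Fe with +Fe medium at the same time point, the control the study used to part the response to iron from the course of development. It was taken as the log2 ratio of RPKM + 1, a scale on which changes of low genes are understated, and a gene was counted at 0.75 or more in either direction, the size limit the study set, here with no false discovery rate. The ratio of AT2G41810 was -2.19, -2.94, -2.62, -3.28, -3.50 and -2.59 from 6 to 36 h. In linear terms the +Fe value was 4.58, 7.71, 6.18, 9.75, 11.4 and 6.04 times the -Fe value at these times. The gene was thus past the limit at all 6 time points, as 52 genes of the table were (6.45%). GL2, the only one of the 28 chosen markers found in the table, was also lower on -Fe medium. Its log2 ratios were -1.26, -1.12, -0.10, -1.64, -1.33 and -0.44, past the limit at 4 of the 6 times. Epidermal genes outside the chosen markers were not looked at. After transfer GL2 was at 154 to 409.8 RPKM on +Fe and 98.1 to 188 on -Fe medium, ranges that overlapped. The part of this marker's change in the ratio of AT2G41810 was not tested.

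The table as a whole held more lower than higher genes at each time. At the limit of -0.75, 23.3%, 23.6%, 11.4%, 30.1%, 26.2% and 13.8% of the 806 genes were lower on -Fe from 6 to 36 h. The row was picked with these ratios known, so nothing is read from its being among them. Its place in that group comes from the same ratios and is likewise given as a description. Counted from the lowest ratio, AT2G41810 held rank 15 at 6 h and then ranks 5, 3, 4, 5 and 5. These ranks depend on the pseudocount, and were 11, 2, 3, 1, 3 and 1 with a pseudocount of 10 and 16, 8, 3, 5, 5 and 7 with 0.1. At 36 h, with a pseudocount of 1, the 4 genes below it included FER1 and FER4, which encode ferritins, the proteins that store iron. Centring each group on the median of all genes moved every ratio up by 0.20 at 24 h and by 0.16 at 30 h, and by less than 0.1 at the other times.

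Its mean ratio over the 6 time points, -2.85, was the third lowest of the table, and the 4th lowest with a pseudocount of 0.1. Below it were NRT2.6 (AT3G45060), a nitrate transporter, at -5.28, and MIOX4 (AT4G26260), a myo-inositol oxygenase that makes glucuronic acid, a building block of wall polysaccharides, at -3.43. The next gene above it was AGT (AT2G13360), an alanine:glyoxylate aminotransferase, at -2.73. The 6 ratios of MIOX4 ran from -5.14 to -2.51 and those of AGT from -3.92 to -1.64, against -3.50 to -2.19 for AT2G41810. Counting AT2G41810 itself, 3 genes of the table had all 6 ratios at or below -2.19, its own highest.

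It was also the most abundant of the genes with so large a difference. Of the 9 genes with a mean log2 ratio at or below -2, AT2G41810 had the highest mean level over the 13 groups, 1004 RPKM, and the next, AT1G21110, had 109.9 RPKM. MIOX4 had a mean of 63.7 RPKM. The mean over +Fe groups after transfer was 1859.8 RPKM for AT2G41810 and that over -Fe groups 278 RPKM, a difference of 1581 RPKM that was the 9th largest fall in the table. Among the 52 genes lower at all 6 time points it was 9th by mean level, where the median was 204 RPKM.

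**Figure D2:**
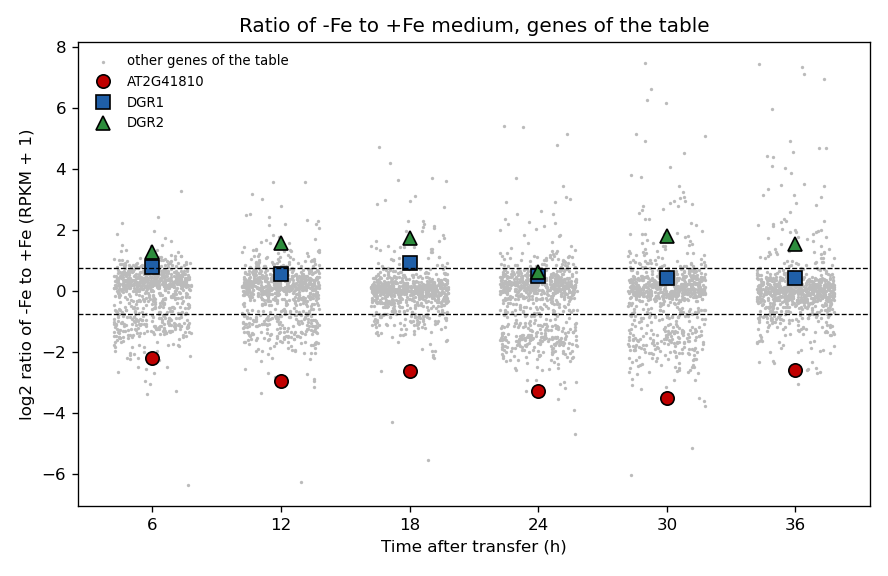
Log2 ratio of -Fe to +Fe (RPKM + 1) on the y axis against hours after transfer on the x axis, with 1 grey point per gene of the table spread sideways for sight, the 3 DUF642 genes as coloured symbols and dashed lines at 0.75 and -0.75. AT2G41810 lies between -2.19 and -3.50 near the lower edge at every time, and DGR1 and DGR2 lie above 0 at every time.

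The second comparison was that with the 0 h group, which shows the +Fe and the -Fe side of that ratio separately. On +Fe medium AT2G41810 stood above 0 h by 3.46, 3.56, 3.22, 2.65, 2.72 and 2.18 on the log2 scale from 6 to 36 h. Its level was 11.8 times that of 0 h after 12 h, and still 4.54 times after 36 h. A change of at least 0.75 over 0 h was seen on +Fe medium in 28.2%, 26.3%, 16.0%, 25.2%, 17.6% and 5.58% of the genes in turn, and at all 6 times in 38 genes (4.71%). The rise of AT2G41810 held rank 20 at 6 h, counted from the largest, and then ranks 12, 4, 9, 7 and 2. The number of genes so far above 0 h went from 227 at 6 h to 45 at 36 h, and AT2G41810 moved up among them. Transfer to fresh medium and growth both set the later groups apart from 0 h, and time of day may do so as well. The seedlings grew under a daily cycle of light and dark, and the hour of each harvest is not given in the sources used here. These differences cannot be told apart here.

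On -Fe medium the gene stayed nearer to its 0 h level and crossed it. The log2 difference from 0 h was 1.27, 0.61 and 0.59 at 6, 12 and 18 h, then -0.63, -0.78 and -0.41 at 24, 30 and 36 h. The value at 6 h was past the limit on the higher side, where 15.3% of the genes were, and that at 30 h just past it on the lower side, where 17.7% were. The latter was -0.51 with each group centred on its median and so no longer past the limit, while the sign was kept. The -Fe values enter this comparison and that with +Fe alike, and the +Fe medium at 0 h is the shared start of both courses.

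From point to point, nearly all of the rise on +Fe medium fell into the first 6 h. The log2 step from 0 to 6 h was 3.46, and the next, from 6 to 12 h, 0.10. Between 6 and 36 h the level on +Fe medium came down by a log2 step of -1.28. On -Fe medium the first step was 1.27, and the step from 6 to 36 h was -1.68. The steepest fall on -Fe medium was the step from 18 to 24 h, -1.22, which 20 genes of the table, AT2G41810 among them, matched or exceeded, and the median gene changed by -0.19 there. On +Fe medium the same step was -0.57, which 45 genes matched or exceeded.

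The DUF642 family has 10 genes in the reference annotation, of which 3 are in the table: AT2G41810, DGR1 (AT1G80240) and DGR2 (AT5G25460). The latter pair is named for a response to L-galactono-1,4-lactone, the last precursor of ascorbate. The other 7, with AT2G41800, the neighbour of AT2G41810 on chromosome 2, were not analysed here. By global alignment of the proteins translated from the TAIR10.1 annotation, AT2G41810 has 370 residues and shares 79.2% of 370 aligned residues with AT2G41800, 52.2% of 364 with DGR2 and 50.1% of 363 with DGR1, while DGR1 and DGR2 share 63.3% of 365. AT2G41810 has 1 transcript model of 3 exons and 1384 bases, and no other gene shares its exon bases. AT2G41800 lies 1094 bases away on the same strand. The best match of the AT2G41810 transcript elsewhere in the genome, by length and identity, was 523 bases of AT2G41800 at 77.8% identity. No match of 125 bases or more reached 97% identity over its whole length. Stretches of 125 bases within longer matches were not scanned, so whether some reads fit both genes was not tested.

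The other DUF642 genes of the table ran opposite to AT2G41810. DGR1 was the most abundant by far, at 7294 RPKM at 0 h. On +Fe medium DGR1 was 4158, 4514, 4584, 5801, 5832 and 5521 RPKM from 6 to 36 h, and on -Fe medium 7126, 6706, 8735, 8066, 7879.9 and 7491 RPKM. Each -Fe value of DGR1 was above each +Fe value after transfer, and the 0 h value lay among those on -Fe medium. Its log2 ratios of -Fe to +Fe were 0.78, 0.57, 0.93, 0.48, 0.43 and 0.44, with a mean of 0.60. The ratios at 6 and 18 h were past the limit, where 9.18% and 6.82% of the genes were higher.

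DGR2 was at 225 RPKM at 0 h, the same level as AT2G41810. On +Fe medium DGR2 was 88.4, 87.9, 69.6, 137, 61.6 and 114 RPKM from 6 to 36 h, and on -Fe medium 215, 263, 237, 208, 219 and 329.9 RPKM. Here too each -Fe value was above each +Fe value after transfer. The log2 ratios of DGR2 were 1.27, 1.57, 1.75, 0.61, 1.81 and 1.53, with a mean of 1.42, the 31st highest of the table. They were past the limit at 5 time points, and at 24 h as well, with 0.81, once each group was centred on its median. The share of genes higher on -Fe was 10.8%, 9.31%, 11.3% and 9.80% at 12, 24, 30 and 36 h, and 19 genes (2.36%) were higher at all 6 times. DGR2 shares 257 exon bases with AT5G03985 and 27 with AT5G25470 on the opposite strand, and whether the counting used strand is not given in the sources used here, so its values are less certain.

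Most of the movement of all 3 genes was on the +Fe side. Against 0 h, DGR1 changed on +Fe medium by -0.81 at 6 h and -0.40 at 36 h, and DGR2 by -1.34 at 6 h and -0.98 at 36 h, while AT2G41810 changed by 3.46 and 2.18. On -Fe medium DGR1 stayed between -0.12 and 0.26 of 0 h, and DGR2 between -0.11 and 0.55. Over the 13 groups the log2 values of AT2G41810 had a Pearson correlation of -0.913 with DGR1 and -0.877 with DGR2, a description over groups that share medium, time and the same libraries for every gene. Of the summed RPKM of the 3 genes, AT2G41810 made up 2.90% at 0 h, 36.9% on +Fe at 6 h and 15.3% on +Fe at 36 h, but 6.87% on -Fe at 6 h and 1.58% on -Fe at 30 h. DGR1 stood at 32.4 times AT2G41810 at 0 h, 1.68 times on +Fe at 6 h and 60.5 times on -Fe at 30 h.

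**Figure D3:**
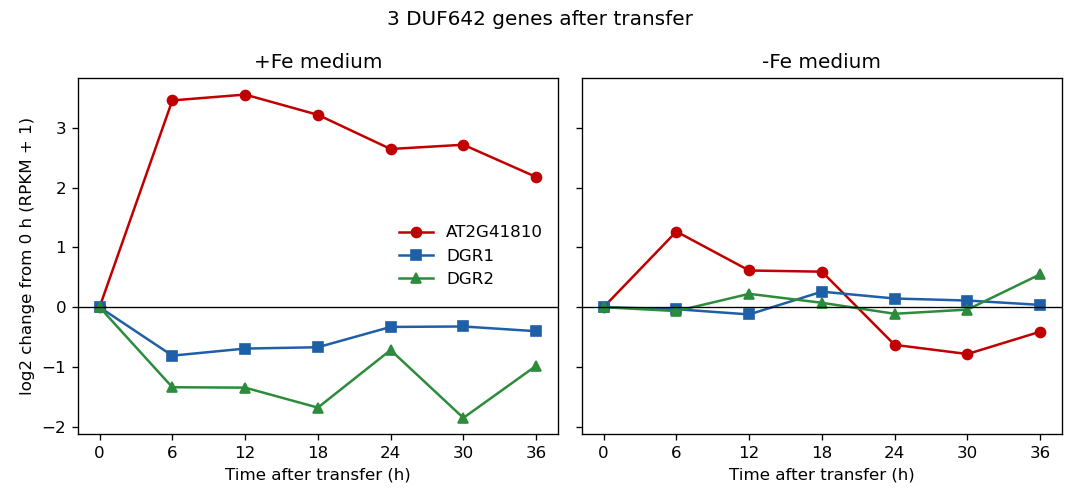
Log2 change from 0 h (RPKM + 1) on the y axis against hours after transfer on the x axis for AT2G41810, DGR1 and DGR2, with +Fe medium on the left and -Fe medium on the right and 1 value per point. On +Fe medium AT2G41810 lies between 2.18 and 3.56 and the other DUF642 genes lie below 0, and on -Fe medium AT2G41810 crosses 0 between 18 and 24 h.

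The genes most like AT2G41810 in course were sought by the Pearson correlation of log2(RPKM + 1) over the 13 groups, taken as a description. Of the 805 other genes, 60 had a correlation of at least 0.9 and 10 one of -0.9 or lower, and the median was -0.168. First was PIRL8 (AT4G26050), a leucine-rich repeat protein of the plant intracellular Ras group-related family, at 0.988. PIRL8 was a far lower gene, at 8.58 RPKM at 0 h, 25.7 to 65.2 on +Fe and 4.60 to 13.1 on -Fe medium, again with no overlap between the media. Its log2 ratios of -Fe to +Fe lay between -2.93 and -1.97. PIRL8 kept a correlation of 0.992 within +Fe medium alone, and of 0.903 within -Fe medium and 0 h.

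The others of the closest 8 had a range of roles. AT1G15330, with a cystathionine beta-synthase domain, stood at 0.966 and had a mean level of 831 RPKM, near that of AT2G41810. SIGA (AT1G64860), a sigma factor that guides the plastid RNA polymerase, stood at 0.956. PLT6 (AT4G36670), a sugar or polyol transporter of the major facilitator superfamily, stood at 0.949 and AGT, named above for its ratio, at 0.947. AT4G28703, of the cupin superfamily, stood at 0.945. BCE2 (AT3G06850), a subunit of the complex that breaks down branched-chain amino acids, and AT1G36060, an AP2-type DNA-binding protein, stood at 0.943 each. Mean ratios of -Fe to +Fe among these 8 genes ran from -2.73 for AGT to -0.73 for AT1G36060. The order is close, and a Spearman correlation kept 3 of the 8.

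Opposite in course were NRT1.1 (AT1G12110), the dual-affinity nitrate transporter, at -0.963, AT2G41380, a methyltransferase-like protein, at -0.946, and YUC8 (AT4G28720), an enzyme of auxin synthesis, at -0.944. NRT1.1 had 319 RPKM at 0 h, 72.5 to 103 on +Fe and 184 to 378 on -Fe medium. Its mean log2 ratio was 1.76, while that of AT2G41380 was 2.15 and that of YUC8 0.89. In each of the 3, +Fe medium lay below 0 h at all 6 times, the mirror of AT2G41810.

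**Figure D4:**
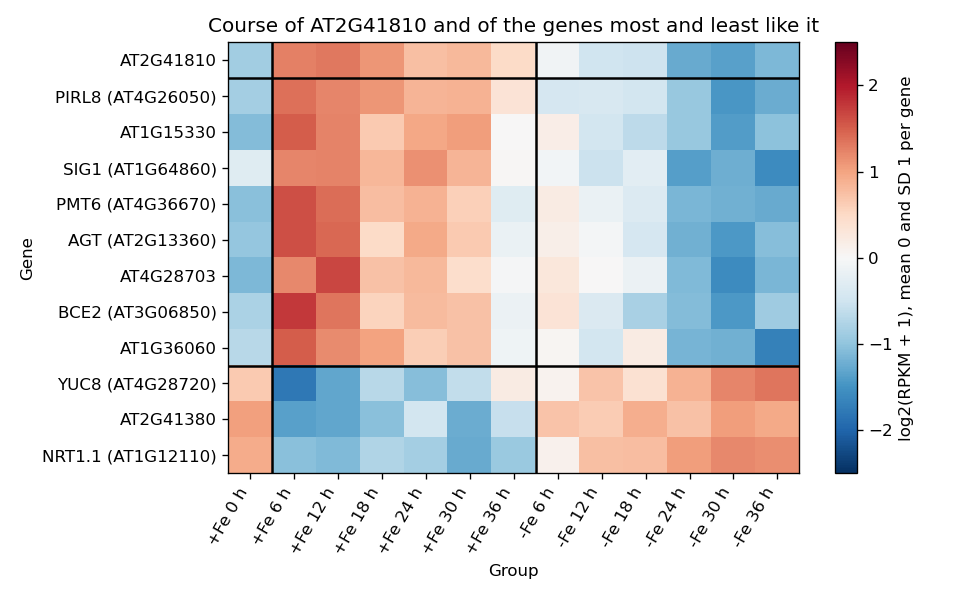
Colour map of log2(RPKM + 1), scaled per gene to mean 0 and SD 1 over the 13 groups, with genes as rows (AT2G41810, the 8 most and the 3 least like it) and groups as columns, red for high and blue for low. The 9 upper rows are red from +Fe 6 h to +Fe 30 h and blue at 0 h and from -Fe 24 h onward, and the 3 lower rows show the opposite.

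To see whether other wall genes moved with AT2G41810, lists were drawn from the reference descriptions: 11 genes of pectin enzymes and their inhibitors, 5 expansins, 4 xyloglucan endotransglucosylases, 8 extensin or proline-rich proteins, 6 arabinogalactan proteins and 7 peroxidases, 41 in all, and no cellulose synthase. Of the 41 genes, 1 was lower on -Fe at all 6 time points and none was higher at all 6, where 6.45% and 2.36% of the table were. At 1 or more time points 6 of the 41 were lower and 9 higher, where 32.6% and 23.4% of the table were. The 6 lower genes include SAPX and APX1, which were listed by the word peroxidase and are not wall proteins. The median of their mean log2 ratios was 0.10, that of all genes 0.06. A gene was listed only where its description held the searched word, so wall genes described in other words were left out.

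The 1 gene lower throughout was EXPA17 (AT4G01630), an expansin, a protein that loosens the bonds between wall polysaccharides. EXPA17 was at 658 RPKM at 0 h, 702 to 1526 on +Fe and 273 to 778 on -Fe medium, ranges that overlapped. Its log2 ratios were -0.97, -1.37, -1.12, -1.16, -1.36 and -1.43, with a mean of -1.24, and its correlation with AT2G41810 was 0.906. At 30 h EXPA17 was near its 0 h level on +Fe medium, at 0.09 on the log2 scale where AT2G41810 was at 2.72, and on -Fe medium both were below 0 h, at -1.26 and -0.78. Of the other expansins, EXPA1, an expansin of expanding cells, had the highest mean ratio, 0.41.

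Among the pectin genes, on which DUF642 proteins are thought to bear, the values went both ways. AT1G62770, which the annotation places among inhibitors of invertase and pectin methylesterase, had the lowest mean ratio, -1.21. It was at 70.1 RPKM at 0 h, 63.8 to 268 on +Fe and 39.2 to 109 on -Fe medium, and its ratios were -1.30, -1.45, -0.34, -1.79, -1.72 and -0.68. PME41 (AT4G02330), a pectin methylesterase, had the highest mean, 1.23, and was highest against +Fe at 36 h, at 2.59. The 9 other pectin genes had mean ratios between -0.32 and 0.63.

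Of the remaining lists, only that of the peroxidases held mean ratios past the limit. The listed xyloglucan endotransglucosylases, which cut and rejoin xyloglucan, had mean ratios from -0.10 for XTH18 to 0.41 for XTH11. Extensins are structural proteins of the wall, and the list of extensin and proline-rich proteins ran from 0.03 for AT3G45230 to 0.50 for AT5G06330. The annotation describes AT5G06330 as a late embryogenesis abundant hydroxyproline-rich glycoprotein, so this list was not limited to extensins. The listed arabinogalactan proteins ran from -0.05 for AGP22 to 0.47 for FLA15. Of the 7 peroxidases, AT2G37130 had the lowest mean, -1.14, and AT1G71695 the highest, 0.12. At 24, 30 and 36 h 3 of the 7 were lower, where 30.1%, 26.2% and 13.8% of the table were. Those 3 include SAPX and APX1, ascorbate peroxidases of the plastid and the cytosol that remove hydrogen peroxide and are not wall proteins.

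**Figure D5:**
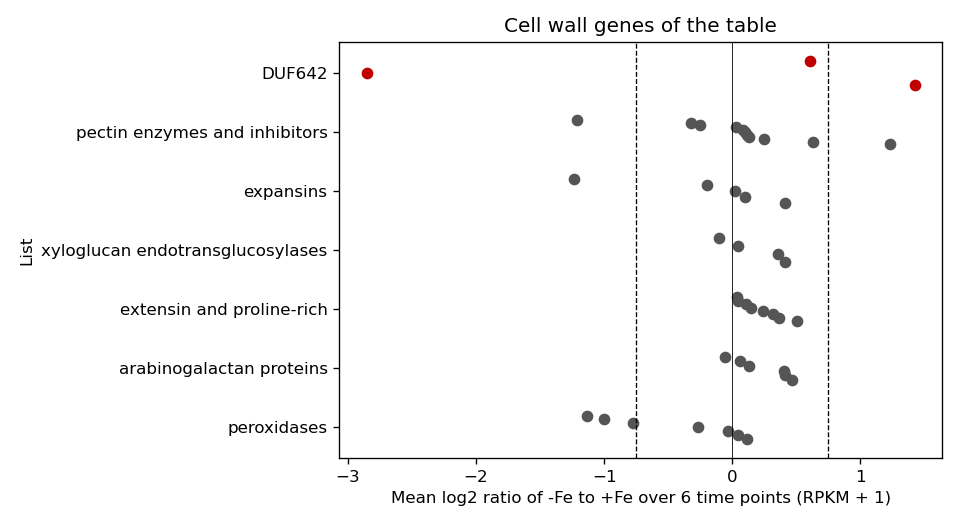
Mean log2 ratio of -Fe to +Fe over the 6 time points (RPKM + 1) on the x axis for each DUF642 gene in red and each gene of the wall lists in grey, with 1 row per list and dashed lines at 0.75 and -0.75. AT2G41810 lies alone at -2.85, and the lowest genes of the wall lists are EXPA17 at -1.24 and AT1G62770 at -1.21.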

How the data were processed

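Messenger RNA of sorted pWER::GFP root epidermal protoplasts was sequenced in 39 libraries. The authors checked the reads with FastQC, trimmed them, mapped them to TAIR10 with TopHat2 and took RPKM values with RSubread, and called differentially expressed genes with edgeR. The deposited RPKM table holds 1 value per gene and group for 806 genes, under a title of differentially expressed genes. It is thus not an unselected set. The way the libraries of each group were merged, the annotation and the use of strand are not given in the sources used here. The labels and the Methods name different library kits. All 13 columns of values were used.

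The planned limma test needs values per library. With 1 value per group, log2 ratios of RPKM + 1, ranks and counts at 0.75 took its place, with no test. AT2G41810, the lists and the rules were chosen with earlier results of these data known. The genes named were AT2G41810, the DUF642 genes in the table, the 8 genes with the highest and the 3 with the lowest Pearson correlation with it, its neighbours in mean ratio, and from the wall lists the gene lower at all 6 time points and the members with the highest and the lowest mean of each list. AT1G21110, NRT2.6, FER1, FER4, SAPX and APX1 were named after their values were seen. RefSeq descriptions (TAIR10.1) matched 804 of the 806 IDs. Proteins, gene models and similar stretches (blastn 2.17.0, Biopython 1.88) came from TAIR10.1, and no coordinates or sequences of it are printed, since the files use TAIR10. The alternatives were pseudocounts of 0.1, 0.01 and 10, centring on group medians or upper quartiles, a threshold of 1, a minimum mean of 1 RPKM, other controls and other correlations. The calculations were tested on simulated data with known answers. They ran on pandas 2.3.3 and numpy 2.4.6 under Python 3.11.15, with figures by matplotlib 3.10.9.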

Additional observations from a re-analysis of the deposited data

Results flagged for a closer look

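The course of AT2G41810 against 0 h pointed in opposite directions at early and late times on -Fe medium. The log2 difference from 0 h was 1.27, 0.61 and 0.59 at 6, 12 and 18 h, and -0.63, -0.78 and -0.41 at 24, 30 and 36 h. With 1 value per group, the difference between early and late times was not tested. On +Fe medium the gene stood above 0 h at all 6 time points, by 2.18 or more.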

How the results depend on the processing

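The log2 ratios of AT2G41810 stayed between -3.51 and -2.10 under all pseudocounts and centrings. Against +Fe at 0 h in place of the matched control its mean ratio turned to 0.11. The -Fe value at 30 h against 0 h was no longer past the limit with a pseudocount of 10 (-0.74), centred on medians (-0.51) or on upper quartiles (-0.61). With a threshold of 1, the genes higher on -Fe were 30 at 6 h and 54 at 12 h, those lower 50 at 18 h and 69 at 36 h, those lower at all 6 times 18 and higher at all 6 times 11, those above 0 h on +Fe 25 at 36 h and 23 at all 6 times, and those below 0 h on -Fe at 30 h 81. Genes higher at 24 h were 121 with medians and 122 with upper quartiles, and those below 0 h at 30 h were 79 with medians. A pseudocount of 10 gave 28 genes above 0 h on +Fe at 36 h and 12 higher at all 6 times. The rank of AT2G41810 at 12 h was 8 with a pseudocount of 0.1. With a pseudocount of 10 its ranks were 2, 1, 3 and 1 at 12, 24, 30 and 36 h. Of the 8 most like genes, 3 were shared with Spearman correlation, 3 on linear RPKM, 1 in -Fe groups and 0 h alone and 2 in +Fe groups alone. Of the 3 least like, 1 was shared with Spearman correlation, 0 in -Fe groups and 0 h alone and 0 in +Fe groups alone. The cause was not tested. No paired analysis was possible because the columns hold 1 value per group, and for the same reason no replicate was left out. The depth is unknown, so the precision of low values is too.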
